A study of Mus musculus with 6 samples.

Results

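The genes described here are 10 members of the BCL2 family that decide survival or death at the mitochondrial outer membrane, picked by gene name from the 54532 genes of a table of RNA-seq read counts. They are the anti-apoptotic genes Bcl2, Bcl2l1, Mcl1 and Bcl2a1b, the effectors Bax and Bak1, and the BH3-only genes Bcl2l11, Bbc3, Pmaip1 and Bid. All 10 had a row in the table. Leukemia cells driven by AE9a (AML1-ETO9a), a splice form of the fusion product of the t(8;21) translocation, were taken from C57BL/6 mice with AE9a leukemia. In one group the marrow was flushed from the bones (central bone marrow, CBM). In the other the bone was digested with collagenase to release the cells near the inner bone surface (endosteal bone marrow, EBM). Each region had 3 libraries.

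Both groups carried the same oncogene, and the labels name no drug treatment. According to the study's methods, the leukemia is a transplantable model started by retroviral transfer of AE9a into c-Kit+ progenitors, and the labels state that sorted cells were kept in culture medium before and after sorting. The age of the mice and the number of leukemia clones are not given in the labels. Region and collagenase digestion coincide in this design and cannot be told apart. The sources used here do not say whether libraries came from separate mice, so p-values measure only the spread between these samples, which may be technical.

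The BCL2 family controls whether the outer mitochondrial membrane is opened to release cytochrome c, the step that commits most cells to apoptosis. Anti-apoptotic members hold the effectors BAX and BAK and the BH3-only proteins in check, whereas BH3-only proteins transmit stress signals by binding the anti-apoptotic members or by activating BAX and BAK. Blood progenitors and myeloid leukemias often depend on MCL1 or BCL2, and many members are also regulated after transcription, which RNA levels do not show.

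The promoter sequences below are shown for Mcl1, Bbc3 and Bcl2l1, the tested members with the smallest p-values between regions. These unadjusted p-values were 0.00805, 0.109 and 0.176 by edgeR. Each is the 250 bases before the RefSeq transcription start farthest upstream (GRCm38.p6), 5′ to 3′ on the gene's strand. Capitals mark matches to NF-kB, ETS core (CCGGAAG) and GC box (GGGCGG) motifs on either strand, with overlapping matches run together.
Mcl1, chr3:95658471-95658720, plus strand: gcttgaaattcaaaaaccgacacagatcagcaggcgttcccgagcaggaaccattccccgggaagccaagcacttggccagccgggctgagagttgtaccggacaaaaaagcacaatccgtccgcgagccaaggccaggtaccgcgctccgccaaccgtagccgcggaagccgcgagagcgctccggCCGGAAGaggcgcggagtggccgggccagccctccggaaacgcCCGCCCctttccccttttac
Bbc3, chr7:16309333-16309582, plus strand: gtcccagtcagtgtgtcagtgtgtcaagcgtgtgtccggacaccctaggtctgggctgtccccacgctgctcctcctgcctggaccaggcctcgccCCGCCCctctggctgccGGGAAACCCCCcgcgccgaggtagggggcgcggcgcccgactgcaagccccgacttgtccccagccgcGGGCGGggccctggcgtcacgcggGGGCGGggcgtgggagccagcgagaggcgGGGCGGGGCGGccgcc
Bcl2l1, chr2:152831729-152831978, minus strand: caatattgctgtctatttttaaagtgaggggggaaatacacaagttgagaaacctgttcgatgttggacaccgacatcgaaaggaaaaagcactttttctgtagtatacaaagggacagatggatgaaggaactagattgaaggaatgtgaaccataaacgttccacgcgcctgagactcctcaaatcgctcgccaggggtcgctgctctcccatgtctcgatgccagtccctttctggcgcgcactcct

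The Mcl1 window had a GC content of 64.4%, with 1 ETS core and 1 GC box. The Bbc3 window was richer in G and C, at 76.4%, and held 5 GC boxes and 2 overlapping NF-kB matches. The Bcl2l1 window had a GC content of 47.6% and none of the 10 motifs searched, whereas the window of another Bcl2l1 start, not shown, held 1 NF-kB match. Bbc3 and Bcl2l1 each have 3 RefSeq starts, and Mcl1 has 1. Of 32851 mouse promoter windows of the same length, 32.7% held a GC box, 7.25% an NF-kB match and 6.91% an ETS core. The other motifs searched on both strands were a p53 decamer (7.13% of windows), AP-1 (TGANTCA, 6.75%), STAT (TTCNNNGAA, 7.02%), the cAMP response element (TGACGTCA, 1.55%), the E-box (CACGTG, 6.02%), the CCAAT box (CCAAT, 33.8%) and the TATA box (TATAAA, 12.4%). Over the 14 starts of the 9 members searched, a p53 decamer was matched only in the Bax window. Pmaip1 was not searched, so nothing is said here about its promoter. A match describes letters in a window and not a bound site.

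The CBM libraries held 17078883, 18856418 and 19462964 reads on genes, and the EBM libraries 18413131, 18097698 and 16436526. Libraries of the same region differed by far more than counting noise. Along the first principal component, which held 53.03% of the variance, CBM 2 and EBM 3 lay together at one end and CBM 1 and EBM 1 at the other, so this component did not follow region. The second component, with 19.71% of the variance, separated the regions, with all CBM libraries below 0 and all EBM libraries above it. The progenitor list, 8 genes, summed to between 599 and 996 CPM in CBM and between 603 and 944 CPM in EBM, most of it from Runx1 and Kit, and Kit had a mean of 219.7 CPM in CBM and 220.4 CPM in EBM. In this list 7 of the 8 genes had a positive log2 fold change, with a median of 0.774, and none was called. The values were 1.67 for Mpo (SE 0.93), 1.56 for Ctsg (SE 0.75), 1.51 for Elane (SE 1.12) and 1.15 for Prtn3 (SE 0.78). For each of these genes the libraries overlapped between regions. The values were 0.40 for Cd34, 0.26 for Runx1t1, 0.004 for Kit and -0.04 for Runx1. CPM is the count scaled to library size after TMM normalization. The 9 erythroid markers were abundant, at 6408, 10509.7 and 7341 CPM in CBM 1, 2 and 3 and at 7322, 8629 and 9653 CPM in EBM 1, 2 and 3. The 10 neutrophil markers ranged from 3.42 to 237 CPM in CBM and from 35.7 to 166 CPM in EBM. The 10 monocyte and macrophage markers reached at most 14.2 and 16.5 CPM, and the 10 lymphoid markers at most 16.5 and 14.5 CPM, in CBM and EBM. Of the 15 osteoblast, stroma and endothelium markers, Sp7, Alpl and Bglap2 had no reads and Col1a1 had 16 counts in all. That list summed to between 280 and 556 CPM in CBM and between 268 and 576 CPM in EBM, nearly all of it from Acp5. The sum therefore follows Acp5 and is not a measure of osteoblasts, stroma or endothelium. Bglap, Cdh5 and Ctsk had 6, 5 and 8 counts in all. Runx2 had means of 9.29 CPM in CBM and 7.94 CPM in EBM. In bulk RNA, fewer cells of a type and less RNA per cell cannot be told apart. The part of any of these markers in the results below was not tested.

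To ask whether the family differed between the 2 marrow regions, its members were read from a fit over all 13352 genes with enough reads. After adjustment over all genes by edgeR, no member was past the threshold of 0.05, and neither was any other gene (0.0% of genes called). At an unadjusted p under 0.05, 1056 genes were counted, and DESeq2 called 176 of 12280 genes (1.43%), none of them a member. Of the 10 members, 8 had enough reads to be tested, and Bcl2a1b and Pmaip1 did not. Among the 8, 5 had a positive and 3 a negative log2 fold change of EBM over CBM, with a median of 0.037 against 0.002 over all genes tested. Mcl1 alone had an unadjusted p under 0.05. Over all genes, 7.91% passed that threshold, 4.01% with higher and 3.9% with lower levels in EBM. Mcl1 was also the only member whose libraries did not overlap between regions, whereas 15.1% of all genes tested had libraries that did not overlap, 7.47% with EBM above and 7.65% with EBM below CBM.

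**Figure D1:**
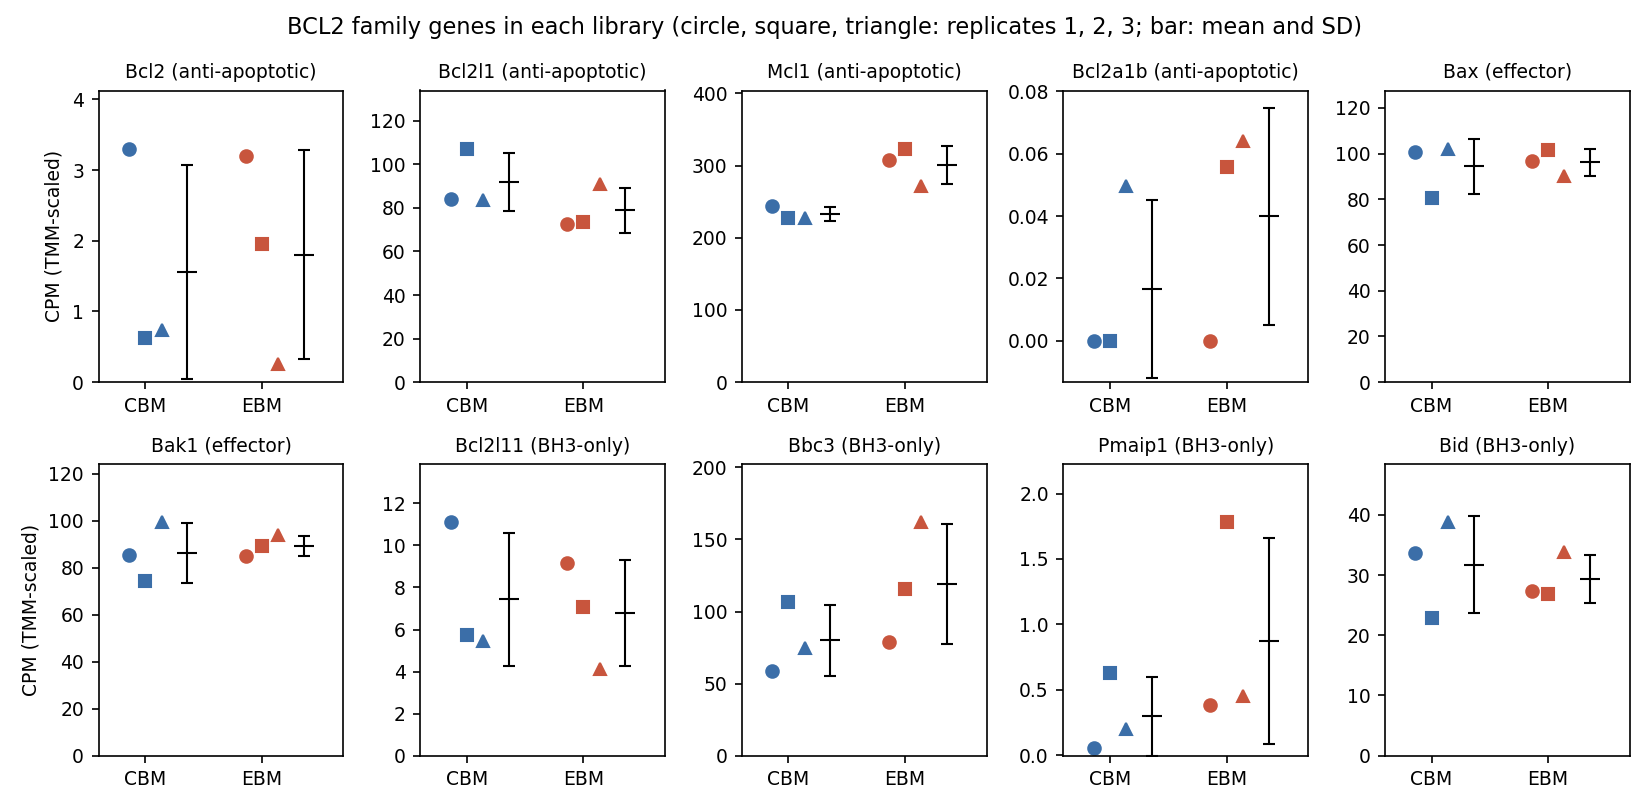
Level of each of the 10 BCL2 family genes in CPM (y axis, its own scale in each panel, starting at 0 or below it where an error bar reaches under 0) in the CBM and EBM libraries (x axis). Circles, squares and triangles are replicates 1, 2 and 3, and the bar gives the mean and SD. Only for Mcl1 do the 3 EBM libraries all lie above the 3 CBM libraries.

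Mcl1 encodes a short-lived anti-apoptotic protein that many myeloid cells need to survive. The gene lies at chr3:95658788-95663176 on the plus strand (GRCm38). Its level was 244, 228 and 228 CPM in CBM and 307, 323 and 272 CPM in EBM, so the lowest EBM library was above the highest CBM library. The means were 233 ± 9.3 and 301 ± 26.4 CPM (SD, n = 3 each). The log2 fold change was 0.37 (SE 0.099), a 1.29-fold higher level with a 95% interval of 1.095 to 1.52. By edgeR the unadjusted p was 0.00805 and the adjusted p 0.404. The exact permutation test over the 20 relabellings gave 0.1, the smallest p it can give here. With any library left out, the log2 fold change stayed between 0.31 and 0.43.

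Bcl2l1 encodes BCL-XL, the anti-apoptotic protein that keeps maturing erythroid cells and platelets alive. It lies at chr2:152780668-152831728 on the minus strand. It was at 84.3, 107 and 83.8 CPM in CBM and at 72.6, 73.4 and 90.9 CPM in EBM. CBM 2 was the highest library and EBM 3 was above 2 of the CBM libraries, so the regions overlapped. These are also the libraries with the largest sums of erythroid markers, but the other libraries did not follow that order. EBM 2 had the next largest sum, 8629 CPM, and nearly the lowest Bcl2l1. CBM 1 had the smallest sum, 6408 CPM, and was above CBM 3, EBM 1 and EBM 2 in Bcl2l1. The means were 91.7 ± 13.3 and 79.0 ± 10.3 CPM (SD, n = 3 each), and the log2 fold change was -0.22 (SE 0.14, adjusted p = 0.790 by edgeR). It was -0.09 without CBM 2, -0.34 without EBM 3 and -0.20 with both left out. The short pro-apoptotic and the long anti-apoptotic splice forms of Bcl2l1 are not separated by a count per gene, and the same holds for the splice forms of Mcl1 and Bcl2l11.

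Bcl2, the founding anti-apoptotic member and the target of venetoclax, lies at chr1:106538178-106714274 on the minus strand and was hardly transcribed. The CBM libraries had 58, 12 and 15 counts and the EBM libraries 58, 35 and 4. In CPM this was 3.3, 0.632 and 0.744 against 3.2, 1.95 and 0.257, a range of 12.8-fold between libraries that crossed both regions. CBM 1 and EBM 1 were the highest. These libraries also had the highest sums of the progenitor list, through Runx1, but the members of that list did not move together. Cd34 was at 15.4, 1.16 and 4.86 CPM in CBM and 16.4, 10.5 and 1.22 CPM in EBM. Like Cd34, Runx1t1 was highest in CBM 1 and EBM 1, whereas Kit was highest in EBM 2. Mpo, Prtn3, Elane and Ctsg were lowest in CBM 1. The log2 fold change was 0.23 with an SE of 0.92 (adjusted p = 0.989 by edgeR) and a 95% interval from -1.95 to 2.41. It was negative without CBM 2, CBM 3 or EBM 1, at -0.14, -0.11 and -0.47.

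Bcl2a1b encodes an A1 protein, an anti-apoptotic member typical of neutrophils and activated lymphocytes, and lies at chr9:89199209-89207827 on the plus strand. It had 3 counts in all 6 libraries, at 0, 0 and 1 in CBM and 0, 1 and 1 in EBM. The mouse genome holds near-identical copies of this gene, so reads could be lost or moved between them in counting. Bcl2a1b also overlaps the protein-coding gene Gm29094 on the same strand, which had no counts. How reads in their shared stretch were counted is not given in the sources used here. To show how alike the copies are, the first 90 coding bases of the 3 full-length copies are given, with the bases that differ between any of them in capitals (GENCODE M21, GRCm38).
Bcl2a1a: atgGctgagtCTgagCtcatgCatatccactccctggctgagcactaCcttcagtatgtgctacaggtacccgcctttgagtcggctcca
Bcl2a1b: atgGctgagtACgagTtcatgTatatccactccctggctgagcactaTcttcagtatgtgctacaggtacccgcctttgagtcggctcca
Bcl2a1d: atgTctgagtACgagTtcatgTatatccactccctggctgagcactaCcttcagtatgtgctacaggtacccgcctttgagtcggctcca
Over the 519 coding bases, 12 positions differed among these copies, 6 of them in the stretch shown. Bcl2a1b was 98.8% identical to Bcl2a1d and 97.9% to Bcl2a1a, and shared with Bcl2a1d an unbroken run of 217 bases, longer than a read. Bcl2a1c is shorter, with 387 coding bases, of which 370 were identical to Bcl2a1b and 16 were substitutions. Bcl2a1d had 8 counts, and Bcl2a1a and Bcl2a1c had none. The 4 genes summed to 0, 1 and 1 counts in CBM and 5, 3 and 1 in EBM. At totals of 3 counts or fewer in most libraries no fold is given, and whether reads that fit several copies were discarded is not given in the sources used here.

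Bax and Bak1, the effectors that form the pores, showed no detectable difference. Bax (chr7:45461697-45466898, minus strand) ranged from 80.7 to 102 CPM in CBM and from 90.2 to 102 CPM in EBM, with a log2 fold change of 0.03 (SE 0.12, adjusted p = 0.989 by edgeR). The 95% interval ran from 0.837-fold to 1.24-fold. Bak1 (chr17:27019810-27029009, minus strand) ranged from 74.2 to 99.3 CPM in CBM and from 84.9 to 93.7 CPM in EBM, with a log2 fold change of 0.05 (SE 0.12, adjusted p = 0.983 by edgeR) and an interval from 0.843-fold to 1.27-fold. For both genes the regions overlapped, and the sign of this small difference turned with library totals in place of TMM, at -0.046 for Bax and -0.026 for Bak1. Bak1 overlaps Ggnbp1 on the opposite strand, a gene with 93 to 144 counts per library. Bax overlaps Gm45808 on the same strand, which had no counts.

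**Figure D2:**
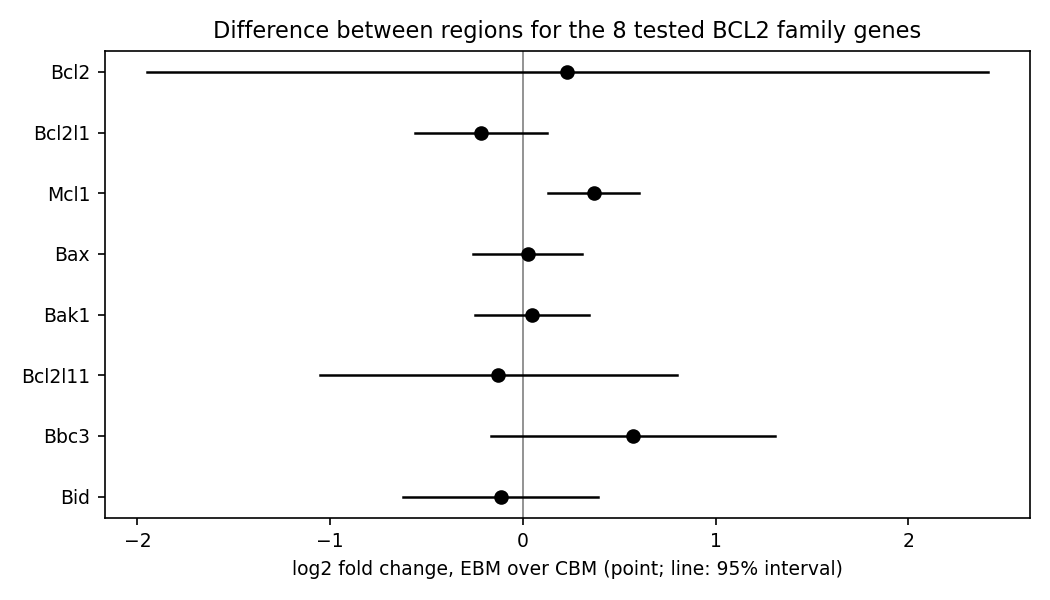
Log2 fold change of EBM over CBM (x axis) for the 8 tested members (y axis), with points for the estimates and lines for their 95% intervals. The interval of Mcl1, from 0.13 to 0.60, is the only one that does not cross 0, and that of Bcl2, from -1.95 to 2.41, is the widest.

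Bbc3 was the most abundant of the 4 BH3-only members. Among the 3 of them tested, it was the most variable relative to genes with like counts. It encodes PUMA, a p53 target that binds all anti-apoptotic members, and lies at chr7:16308393-16318205 on the plus strand. Its level was 58.4, 107 and 75.0 CPM in CBM and 78.8, 116 and 162 CPM in EBM. EBM 3 was the highest and CBM 1 the lowest, 2.77-fold apart, while CBM 2 was above EBM 1. The means were 80.0 ± 24.5 and 119 ± 41.7 CPM (SD, n = 3 each). The log2 fold change was 0.57 (SE 0.31, p = 0.109, adjusted p = 0.722 by edgeR), with a 95% interval from 0.891-fold to 2.47-fold, and the exact permutation p was 0.2. It was 0.27 without EBM 3, 0.83 without CBM 2 and 0.54 with both left out. The summed erythroid markers were lowest in CBM 1 as well, and highest in CBM 2 and EBM 3. The orders were not the same, since EBM 2 was above CBM 2 in Bbc3 and below it in these markers.

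Bid is cleaved by caspase-8 and so links death receptors to mitochondria, and lies at chr6:120891930-120916853 on the minus strand. It was at 33.6, 22.9 and 38.8 CPM in CBM and at 27.3, 26.8 and 33.9 CPM in EBM. The EBM libraries lay inside the range of the CBM libraries, and the log2 fold change was -0.12 (SE 0.21, adjusted p = 0.976 by edgeR). With CBM 2 and EBM 3 both left out it was -0.42, with an adjusted p of 0.321 by edgeR. Bid overlaps the end of Bcl2l13 on the opposite strand, which had 4919 to 8497 counts per library against 434 to 781 for Bid. It also overlaps Gm44260 on the same strand, with 38, 41 and 55 counts in CBM and 26, 26 and 24 in EBM. The strand setting of the counting is not given in the sources used here.

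Bcl2l11 encodes BIM, which is induced when growth factors are withdrawn, and lies at chr2:128126038-128162547 on the plus strand. It had 195, 109 and 110 counts in CBM and 166, 127 and 64 in EBM. In CPM this was 11.1, 5.74 and 5.46 against 9.16, 7.07 and 4.11, with replicate 1 highest in each region and a log2 fold change of -0.13 (SE 0.39, adjusted p = 0.984 by edgeR). The difference was positive without CBM 1 (0.28) and without EBM 3 (0.12).

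Pmaip1 encodes NOXA, which binds MCL1 and promotes its degradation, and lies at chr18:66458604-66465550 on the plus strand. It had 1, 12 and 4 counts in CBM and 7, 32 and 7 in EBM. EBM 2 held 32 of the 46 EBM counts, and CBM 2 was above the other EBM libraries. The gene was too low for the fit over all genes. Without the filter on low counts its log2 fold change was 1.54 (SE 0.81, adjusted p = 0.819 by edgeR), and the exact permutation p was 0.3.

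Per kilobase of gene length, Mcl1 was the most abundant member, at a mean of 78.1 CPM per kb over the 6 libraries and a range from 66.6 to 94.6. Bax followed at 60.5 (51.2 to 64.8), then Bbc3 at 46.8 (27.5 to 76.2), Bak1 at 36.5 (30.8 to 41.3), Bcl2l1 at 18.6 (15.8 to 23.4) and Bid at 8.6 CPM per kb (6.44 to 10.9). The lowest levels were those of Bcl2l11 at 0.885, Pmaip1 at 0.221, Bcl2 at 0.184 and Bcl2a1b at 0.035 CPM per kb. Neighbours in this order were separated by their ranges between Mcl1 and Bax, Bak1 and Bcl2l1, Bcl2l1 and Bid, and Bid and Bcl2l11. The ranges overlapped for Bax with Bbc3 and Bbc3 with Bak1, and for the neighbours among the 4 lowest genes.

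**Figure D3:**
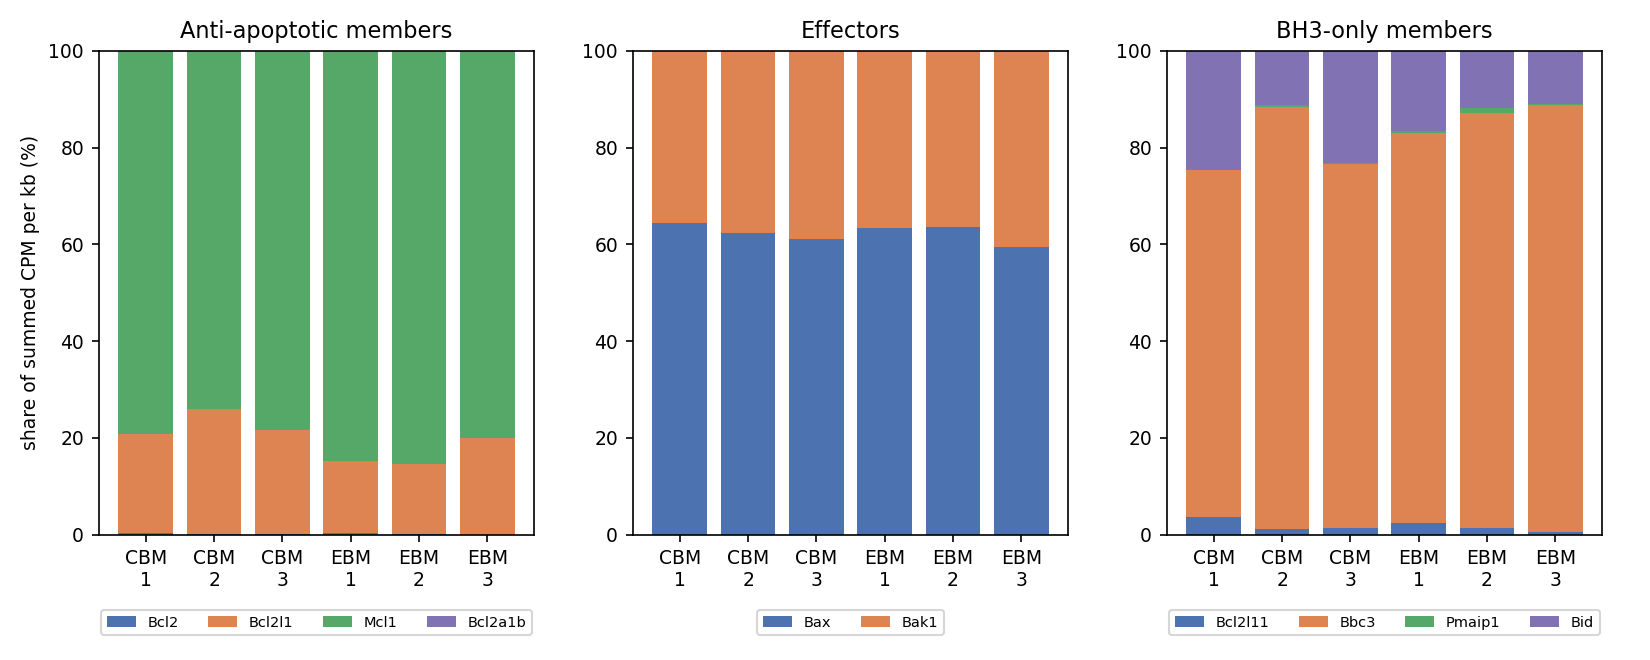
Share of each gene in the summed CPM per kb of its role (y axis, %) in each library (x axis), for the anti-apoptotic members, the effectors and the BH3-only members. Mcl1 fills 74.0% to 85.3% of the anti-apoptotic sum, Bax 59.5% to 64.3% of the effector sum and Bbc3 71.7% to 88.2% of the BH3-only sum.

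Per kilobase, a single gene made up most of the summed level of the members in each role. For the effectors this depended on the division by gene length, since Bax was 49.1% to 54.2% of the effector sum in CPM and Bak1 was the larger in EBM 3. Mcl1 was 79.2%, 74.0% and 78.4% of the summed CPM per kb of the 4 anti-apoptotic members in CBM, and 84.8%, 85.3% and 80.0% in EBM. The means were 77.2% ± 2.82 and 83.3% ± 2.94 (SD, n = 3 each), and all EBM libraries were above all CBM libraries, although CBM 1 and EBM 3 lay close together. Bcl2l1 made up nearly all of the rest, between 14.4% and 26.0%, and Bcl2 at most 0.4%. On this scale Bcl2l1 was 0.258, 0.351 and 0.274 of Mcl1 in CBM and 0.176, 0.169 and 0.249 in EBM. Bbc3 was 1.497, 2.151 and 1.932 times Bcl2l1 in CBM and 2.343, 3.408 and 3.848 times in EBM. For both ratios the libraries did not overlap between regions. Bbc3 was 0.3856, 0.7549 and 0.5289 of Mcl1 in CBM and 0.4125, 0.5769 and 0.9589 in EBM, which overlapped. These ratios follow from the levels already given and were not tested, and no share without overlap was computed for ratios of other genes. The effectors kept the most even ratio, with Bax at 1.47 to 1.80 times Bak1 across libraries. Bbc3 was 19.9 to 149 times Bcl2l11, and both extremes came from libraries at the ends of the first principal component, CBM 1 and EBM 3.

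**Figure D4:**
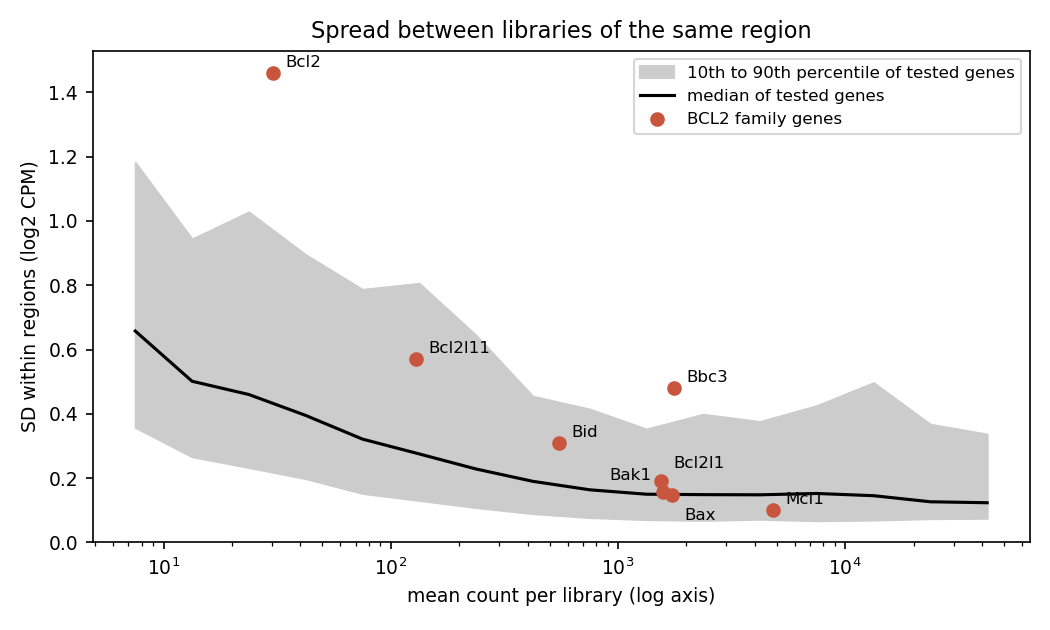
SD of log2 CPM between libraries of the same region (y axis) against the mean count per library (x axis, log axis) for the 8 tested members (orange points), with the median (line) and the 10th to 90th percentile (grey band) of tested genes. Bbc3 and Bcl2 lie above the band of genes with like counts, and Mcl1 lies below the median.

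The members differed in how much they varied between libraries of the same region. The SD of log2 CPM within regions was 0.10 for Mcl1, lower than the median of 0.15 for genes with like counts. It was 0.48 for Bbc3, at percentile 93.8 of 2304 genes with like counts, and 1.46 for Bcl2, at percentile 96.0 of 1285. Bcl2l11 (0.57) and Bid (0.31) were at percentiles 82.2 and 80.9. Bax, Bak1 and Bcl2l1 were between percentiles 49.5 and 66.2.

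The genes most like Mcl1 across the 6 libraries, by Pearson correlation of log2 CPM, were C920009B18Rik (r = 0.996), Gm43430 (r = 0.995) and Wdr48 (r = 0.992), and 72 of 13351 genes reached 0.95 or more. Those most like Bbc3 were Dusp11 (r = 0.991), Sec11c (r = 0.9904) and 4930524O07Rik (r = 0.9899), with 60 genes at 0.95 or more. These values describe 6 libraries that share their depth and cell makeup, and many genes reach a high r over so few points.

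The rest of the apoptosis pathway was read from 8 lists of 75 genes, of which 61 were tested and 6 had no reads. No gene of these lists passed an adjusted p of 0.05, and 34 had a positive and 27 a negative log2 fold change, the median being 0.028. Before adjustment, 8 of the 61 had a p under 0.05, 4 in each direction, against 7.91% of all genes. Libraries did not overlap between regions for 10 of the 61, 5 in each direction, against 15.1% of all genes.

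**Figure D5:**
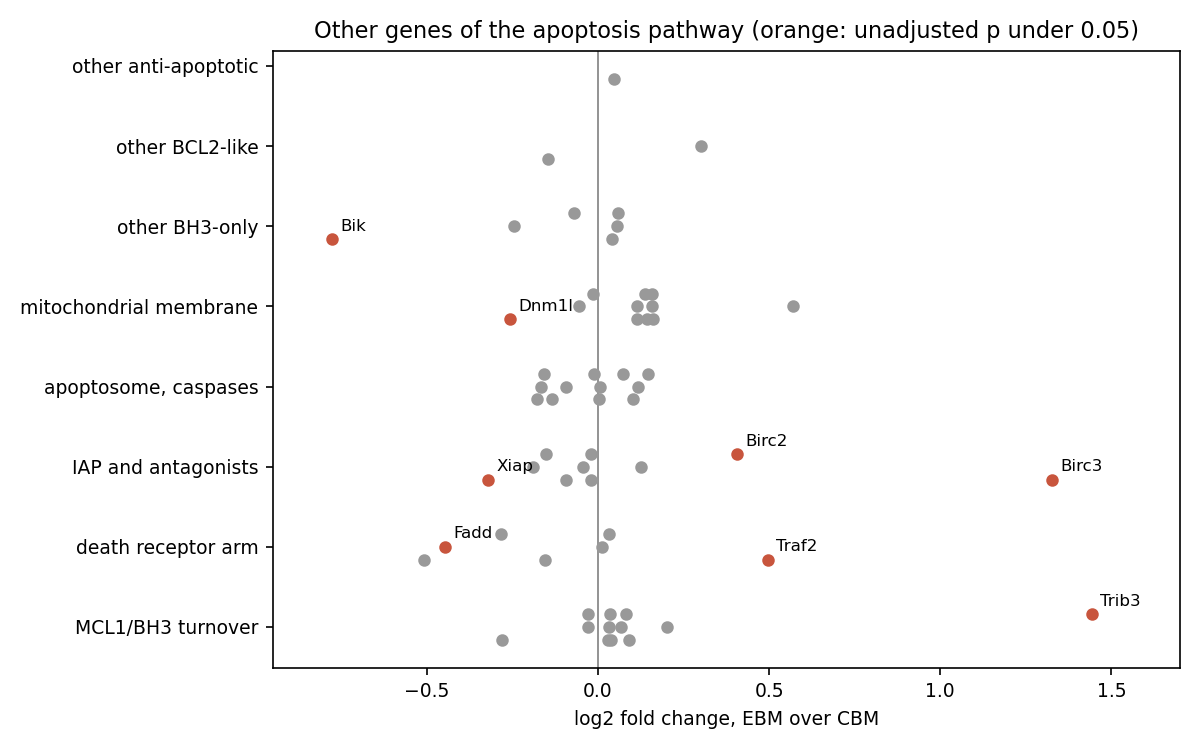
Log2 fold change of EBM over CBM (x axis) of the 61 tested genes of the wider pathway, by list (y axis). Orange points are the 8 genes with an unadjusted p under 0.05, among which Trib3 and Birc3 have the largest differences, 1.44 and 1.33, and Bik the most negative, -0.78.

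Among the inhibitors of apoptosis (IAP) and their antagonists, the log2 fold change was positive for 3 and negative for 7 of the 10 tested genes, and 3 had an unadjusted p under 0.05. Birc3, which encodes the ubiquitin ligase cIAP2 and is a target of NF-kB, was at 51.4, 33.3 and 34.8 CPM in CBM and 133, 105 and 61.5 CPM in EBM. Its log2 fold change was 1.33 (SE 0.30, adjusted p = 0.306 by edgeR), with every EBM library above every CBM library. Birc2, which encodes the related cIAP1, had means of 75.2 and 99.7 CPM and a log2 fold change of 0.41 (adjusted p = 0.435 by edgeR). Xiap, which encodes a direct caspase inhibitor, had means of 110 and 87.9 CPM and a log2 fold change of -0.32 (adjusted p = 0.596 by edgeR). In the death receptor arm, Traf2, whose product recruits cIAP1 and cIAP2 to tumor necrosis factor receptors, had means of 46.1 and 65.0 CPM and a log2 fold change of 0.50, with an adjusted p of 0.237 by edgeR. Fadd, the adaptor of death receptors, was at means of 18.5 and 13.6 CPM (log2 fold change -0.45, adjusted p = 0.517 by edgeR). Of the 12 genes of this arm, 7 were tested, with a positive log2 fold change for 3 and a negative one for 4. The receptor genes Fas, Tnfrsf1a, Tnfrsf1b and Tnfrsf10b were not tested, with 2, 50, 73 and 14 counts in all libraries together.

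In the other lists fewer genes stood out. Of the 7 other BH3-only genes, 6 were tested, 3 in each direction, and Bik had means of 3.2 and 1.86 CPM (log2 fold change -0.78, adjusted p = 0.540 by edgeR). Of the 11 genes of the mitochondrial membranes, the log2 fold change was positive for 8 and negative for 3, with a median of 0.137. Dnm1l, which encodes the fission enzyme DRP1, was the only one of these with an unadjusted p under 0.05, at means of 124.7 and 104.4 CPM (log2 fold change -0.26, adjusted p = 0.596 by edgeR). Of the 13 genes for turnover or sequestration of MCL1 and BH3-only proteins, 12 were tested and 9 had a positive log2 fold change, with a median of 0.036 over the list, and 1 of them had an unadjusted p under 0.05. Trib3, a pseudokinase gene of the integrated stress response, was at 5.01, 7.84 and 12.3 CPM in CBM and 13.2, 25.3 and 29.9 CPM in EBM (log2 fold change 1.44, SE 0.41, adjusted p = 0.420 by edgeR).

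No gene had an unadjusted p under 0.05 among the other anti-apoptotic genes, the other BCL2-like genes and the apoptosome genes with caspases. Only 1 of the 5 other anti-apoptotic genes and 2 of the 5 other BCL2-like genes had enough reads to be tested. The tested anti-apoptotic gene was Bcl2l2, which encodes BCL-W (log2 fold change 0.05, adjusted p = 0.989 by edgeR). Among the BCL2-like genes the smallest p was that of Bcl2l13, which encodes a mitochondrial receptor for mitophagy (0.30, adjusted p = 0.796 by edgeR). Among the apoptosome and caspase genes it was that of Apaf1, which encodes the scaffold of the apoptosome (-0.18, adjusted p = 0.710 by edgeR). All 12 apoptosome and caspase genes were tested, with 6 in each direction.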

How the data were processed

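RNA-seq was done on 3 CBM and 3 EBM libraries, grouped by the sample labels. The authors made directional libraries from rRNA-depleted RNA and deposited raw counts per gene with a gene length, without normalization. Per the labels, the submitters' processing notes name HISAT2 2.0.5 and mm10. The counting tool, its strand setting and the annotation release are not given in the sources used here. Of the 54532 gene identifiers, 54409 are in GENCODE M21, and 98.3% of these had the same position there, so coordinates are on GRCm38.

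Genes were kept by filterByExpr, normalized by TMM (factors 0.948 to 1.037) and tested by the quasi-likelihood F-test of edgeR 4.0.16 in R 4.3.3, with Benjamini-Hochberg adjustment over all 13352 genes and a threshold of 0.05. The SE is the absolute log2 fold change divided by the square root of F, and 95% intervals use 6.81 degrees of freedom. Exact two-sided permutation tests used log2 CPM with a prior count of 2. No fold is printed for Bcl2a1b, which did not exceed the floor of 3 counts in any library (the floor covers counting error only). The script was tested on simulated data.

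Alternatives were DESeq2 1.42.0, limma-voom 3.58.1, other size factors and filters, a replicate block, thinning to the smallest library and leaving out each library. Leaving out CBM 2 and EBM 3 together was added after seeing the data. The 10 members and the pathway and marker lists were chosen with earlier results of these data known. Named from the pathway lists were genes with an unadjusted p under 0.05 or, where a list had none, its gene with the smallest p, and for the 2 members with the smallest p the 3 most correlated genes. Runx1, Kit, Cd34, Runx1t1, Mpo, Prtn3, Elane and Ctsg were named from the progenitor list after their values were seen. Promoters are from RefSeq (GRCm38.p6). Protein sequences were not used here.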

Additional observations from a re-analysis of the deposited data

How the results depend on the processing

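No member passed an adjusted p of 0.05 under any of the 15 alternatives. Mcl1 kept a positive log2 fold change of 0.30 to 0.43 and an unadjusted p between 0.00293 and 0.0348 in all of them, with adjusted p from 0.130 to 0.985. Over all genes edgeR called 0, against 176 by DESeq2, 40 by edgeR without a filter on low counts and 13 with CBM 2 and EBM 3 both left out. With each library left out in turn the number at an unadjusted p under 0.05 was 678 (without CBM 3) to 1136 (without EBM 3), against 1056. Members at an unadjusted p under 0.05 numbered 1, but 2 without the filter (Mcl1 and Bbc3), 1 to 2 with a library left out (2 without CBM 2 or EBM 1, where Bbc3 joined Mcl1, and without EBM 3, where Bcl2l1 did), and 3 with CBM 2 and EBM 3 left out (Mcl1, Bbc3 and Bid).

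Signs turned for members near 0. With each library left out in turn, Bcl2 ran from -0.47 (without EBM 1) to 1.39 (without CBM 1), and was -0.14 and -0.11 without CBM 2 and CBM 3. Bax ran from -0.075 (without CBM 2) to 0.085 (without CBM 3), with -0.021 without EBM 2, and Bak1 from -0.048 (without CBM 2) to 0.16 (without CBM 3). Bcl2l11 ran from -0.41 (without EBM 1) to 0.28 (without CBM 1), with 0.12 without EBM 3, and Bid from -0.30 (without CBM 2) to 0.052 (without CBM 3). Library totals gave -0.046 for Bax and -0.026 for Bak1, and leaving out CBM 2 and EBM 3 gave -0.033 and -0.087. Library totals moved the median of all genes by -0.07. Without division by gene length, Mcl1 was 75.1%, Bcl2l1 24.4% and Bcl2 0.470% of the anti-apoptotic sum. The cause of these changes was not tested.

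Whether the replicate numbers pair the libraries is not given in the sources used here. Deviations from the region means correlated at 0.676, -0.204 and 0.203 for numbers 1, 2 and 3. The value for CBM 2 with EBM 3 was 0.51. With 3 libraries per region and a first principal component that runs across both regions, these values cannot show whether libraries are paired. With a replicate block, no gene and no member was called, Mcl1 was at 0.36 (adjusted p = 0.467 by edgeR) and Bbc3 at 0.55 (adjusted p = 0.554 by edgeR). Bcl2a1b and Pmaip1 had the fewest reads, with 3 and 63 counts over all libraries, and neither was in the main fit. At 3 counts a difference in Bcl2a1b could not be detected, and the handling of reads shared with its copies is not known. For Pmaip1 the libraries also differed widely within regions, and it was not called in the fit without the filter on low counts.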
